A study of Mus musculus with 2 samples.

Results

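A set of 10 genes that write, keep or remove cytosine methylation was followed in polyadenylated RNA of mouse liver at 12.5 days of development, chosen by name and not by their levels. The 5 writers were Dnmt1, Uhrf1, Dnmt3a, Dnmt3b and Dnmt3l, and the 5 erasers were Tet1, Tet2, Tet3, Tdg and Mbd4. All 10 were found by symbol in the GENCODE M21 gene and transcript quantifications of both libraries, among 55536 entries with Ensembl gene identifiers. The samples were healthy livers of B6NCrl embryos of both sexes, pooled from 120 embryos for replicate 1 and from 88 for replicate 2, and no other group was present. Both pools carry the same strain entry in the labels, so the spread between them measures 2 pools of 1 strain prepared by the same procedure. Replicate 1 held 38293265 expected counts in all and replicate 2 35399872, and the members took 0.114% and 0.116% of the counts given to genes.

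DNA methylation in mammals sits mostly on the cytosine of CG dinucleotides. Dnmt1 copies it onto the new strand after replication, guided by Uhrf1, which binds hemimethylated DNA behind the fork; Dnmt3a and Dnmt3b place it on unmethylated sites, and Dnmt3l is their inactive partner in germ cells. The TET enzymes oxidise 5-methylcytosine, and the glycosylases Tdg and Mbd4 cut out oxidised or deaminated bases so that repair can restore an unmethylated cytosine. Foetal liver at this stage is a site of blood formation, so the RNA came from blood cells as well as hepatoblasts. All 6 hepatoblast markers were at 10 TPM or more and all 6 red cell markers at 100 TPM or more, while none of 5 germ cell markers reached 1 TPM. Markers of other cells were detected too. All 4 macrophage markers and all 3 each of megakaryocytes, endothelium and mesenchyme were at 1 TPM or more. Their medians were 14.8, 71.3, 9.655 and 121 TPM in that order. Of all protein-coding genes, 54.3% reached 1 TPM, 32.1% reached 10 TPM and 5.38% reached 100 TPM. The unit TPM divides each count by the effective length of the gene and by the sum over the library, so levels can be set between genes.

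Uhrf1 was the most abundant member, with 129 and 128 TPM in replicates 1 and 2, from 13730 and 12587 counts. Dnmt1 followed with 81.6 and 84.6 TPM, from 12121 and 11664 counts. Both genes of maintenance thus stood above most protein-coding genes, with 95.8% of the 22028 protein-coding genes below the mean level of Uhrf1 and 93.5% below that of Dnmt1. Uhrf1 (ENSMUSG00000001228.14) lies on the plus strand at chr17:56303321-56323486 of mm10, and Dnmt1 (ENSMUSG00000004099.16) on the minus strand at chr9:20907209-20959888. In whole tissue, fewer cells that express a gene and less of its RNA per cell cannot be told apart.

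Among the genes of de novo methylation, Dnmt3a held 48.5 and 49.1 TPM, from 4986 and 4767 counts, on the plus strand at chr12:3806007-3914443 (ENSMUSG00000020661.15). Dnmt3b held 14.4 and 13.8 TPM, from 1721 and 1515 counts, on the plus strand at chr2:153649450-153687730 (ENSMUSG00000027478.15). Dnmt3l (chr10:78041947-78063622, plus strand, ENSMUSG00000000730.13) had 1 count in replicate 1, listed as 0.10 TPM, and none in replicate 2, where the limit of 3 counts that a 0 allows amounts to 0.0899 TPM. That single read was assigned to a transcript annotated as a retained intron, so no coding Dnmt3l transcript was detected at this depth. The effective length given for Dnmt3l was 310 bases in replicate 1 and 1103 in replicate 2. In replicate 1 the same 3 counts would amount to 0.296 TPM, so 0.10 and 0.0899 TPM rest on unlike lengths.

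Among the erasers, Tdg stood highest with 62.1 and 66.8 TPM, from 5524 and 5381 counts. Mbd4, the glycosylase that removes thymine or uracil opposite guanine at CG sites, held 13.6 and 12.2 TPM from 1163 and 935 counts. Tdg (ENSMUSG00000034674.18) lies on the plus strand at chr10:82629828-82650799, and Mbd4 (ENSMUSG00000030322.12) on the minus strand at chr6:115840697-115853371. By mean TPM the 3 TET genes were the lowest detected members, though Tet3 stood above Mbd4 in replicate 2. Tet3 (chr6:83362373-83459084, minus strand, ENSMUSG00000034832.15) held 10.1 and 12.4 TPM from 2158 and 2074 counts. Tet2 (chr3:133463679-133545139, minus strand, ENSMUSG00000040943.12) held 4.25 and 4.27 TPM from 557 and 532 counts. Tet1 (chr10:62804570-62908996, minus strand, ENSMUSG00000047146.17) held 3.01 and 3.82 TPM from 338 and 387 counts. Counting error alone gives exact 95% Poisson intervals of 2.70 to 3.35 and 3.45 to 4.22 TPM for Tet1, against 127 to 132 and 125 to 130 TPM for Uhrf1.

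**Figure D1:**
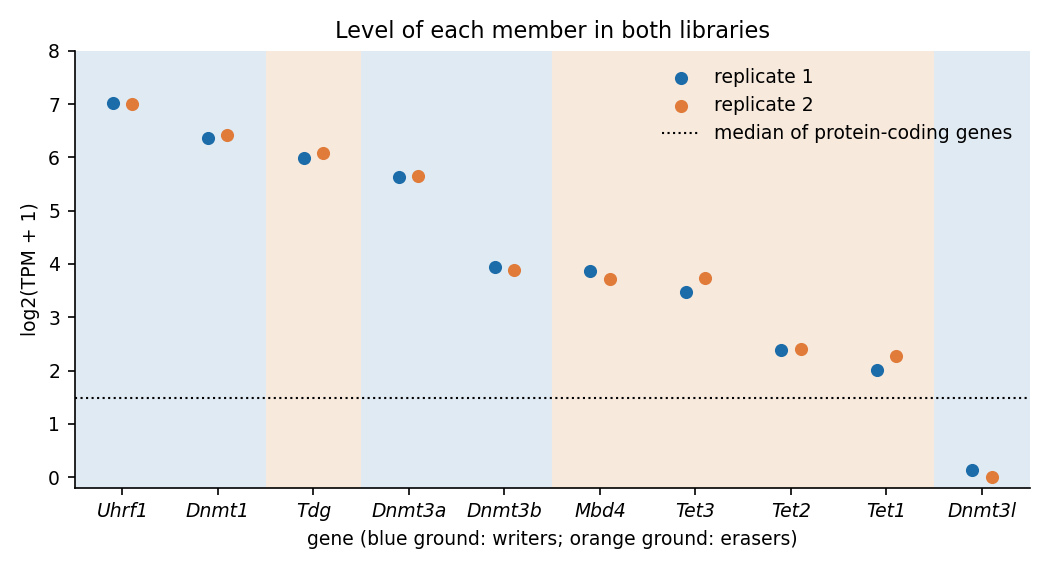
The vertical axis gives log2(TPM + 1) and the horizontal axis the 10 members in order of mean level, with a point for each library, writers on a blue ground and erasers on an orange one. Uhrf1 and Dnmt1 stand at the left, the TET genes to the right, and Dnmt3l alone lies below the dotted line at the median of protein-coding genes, 1.82 TPM.

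By mean TPM the order was Uhrf1, Dnmt1, Tdg, Dnmt3a, Dnmt3b, Mbd4, Tet3, Tet2, Tet1 and Dnmt3l. Among neighbours in this order, Mbd4 and Tet3 were the only pair whose 2 values overlapped, with 12.2 to 13.6 TPM against 10.1 to 12.4 TPM; the other 8 neighbouring pairs did not overlap between libraries. A total of 9 members reached a mean of 1 TPM, against 54.3% of all protein-coding genes, 7 reached 10 TPM, against 32.1%, and 1 reached 100 TPM, against 5.38%. Over complete coding transcripts the first 2 tallies would be lower, with Tet1 at 0.61 and 0.76 TPM and Tet3 at 6.61 and 6.98 TPM. The shares of all genes were not recomputed in that way. The median of the members was 13.5 TPM, beside 1.82 TPM over all protein-coding genes.

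Set against each other by role, the maintenance genes together held 211 and 212 TPM, and the de novo genes together 62.97 and 62.92 TPM. Maintenance thus stood 3.36 ± 0.0171 times above de novo (SD, n = 2, log2 1.75 ± 0.0073). Most of the maintenance sum was Uhrf1, the guide of Dnmt1, with 129 and 128 TPM, against 81.6 and 84.6 TPM for Dnmt1. Without Uhrf1 this ratio would be lower, and so would that of writers to erasers. The writers summed to 274 and 275 TPM and the erasers to 93.1 and 99.5 TPM, a ratio of 2.85 ± 0.124 (log2 1.51 ± 0.063). Most of the eraser sum was glycosylase RNA, with 75.7 and 79.0 TPM for Tdg and Mbd4 together, and the 3 TET genes held 17.4 and 20.5 TPM.

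Within the pairs of related genes, Dnmt3b held 0.289 ± 0.0097 times the TPM of Dnmt3a (log2 -1.79 ± 0.049). Dnmt1 held 0.647 ± 0.023 times the TPM of Uhrf1 (log2 -0.63 ± 0.051). Tdg held 5.04 ± 0.651 times the TPM of Mbd4 (log2 2.33 ± 0.19). Each of these 3 differences had the same direction in both libraries and was several times its SD. Tet3 made up 59.4 ± 1.62% of summed TET TPM, Tet2 22.6 ± 2.55% and Tet1 17.97 ± 0.937%. These shares depend on the transcripts counted: Tet2 made up 10.9% under the older annotation and 15.4% over complete coding transcripts, and Tet1 12.9% and 7.72%. Tet2 over Tet1 was 1.26 ± 0.208, and this small excess turned round when only transcripts annotated as protein-coding were summed (log2 -0.19) or under the older annotation (log2 -0.24). With 2 libraries of 1 group no exact test can pass a threshold of 0.05, since the smallest p that an exact sign-flip test allows is 0.5.

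The libraries differed little in these genes. Of 17343 genes with a mean count of 10 or more, 407 (2.35%) passed 2-fold between the libraries with an exact binomial interval that left out the scaled split, and none of the 9 members tested did. The largest ratio belonged to Tet1, at log2 0.31 for replicate 2 over replicate 1 in scaled counts, with a 95% counting interval of 0.09 to 0.52. Mbd4 was lower in replicate 2, at log2 -0.20 (-0.33 to -0.08). Dnmt1 and Tdg had intervals just above 0, at log2 0.06 (0.02 to 0.09) and 0.07 (0.02 to 0.13). The intervals of the other 5 tested members included 0, and over all tested genes the median size of the log2 ratio was 0.102. Tet3 showed a gap between the scales: its counts had a log2 ratio of 0.06, while its TPM had one of 0.29. The 469-base fragment Tet3-204 held 3.63 TPM in replicate 2 and 0.84 TPM in replicate 1, and the effective length of Tet3 as a whole was 5525 bases in replicate 2 and 6522 bases in replicate 1.

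The transcripts of the members were examined next, since several of these genes make proteins of different activity. A total of 9 members had at least 2 transcripts that each held 10% or more of the gene's TPM in both libraries, 24 transcripts in all, and Dnmt3l was the exception. Among the 10920 protein-coding genes at 1 TPM or more with more than 1 annotated transcript, 60.8% met the same rule. Annotated transcripts numbered between 5 for Tet3 and Mbd4 and 18 for Dnmt3a, so reads had to be divided among many overlapping forms.

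**Figure D2:**
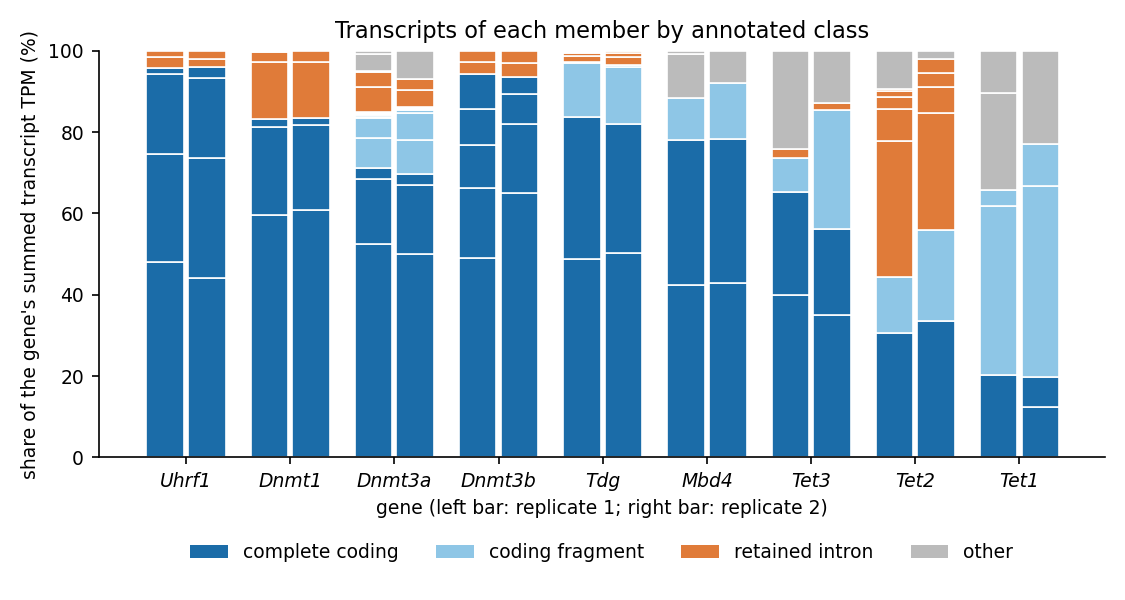
Each bar is 1 library of 1 gene and each segment a transcript, with its share of the gene's summed transcript TPM in percent, coloured by annotated class: complete coding transcripts, coding fragments with an open end, retained introns and others. Complete coding transcripts fill 95.7% and 96.0% of the Uhrf1 bars, but 20.3% and 19.8% of the Tet1 bars and 30.7% and 33.4% of the Tet2 bars; in expected counts the complete forms held 83.5% and 82.6% of Tet1 and 69.4% and 73.7% of Tet2.

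Dnmt1, the maintenance enzyme, was led by Dnmt1-201, which encodes 1620 residues and held 59.5% and 60.8% of the TPM of the gene. Dnmt1-202, with 21.8% and 20.8%, begins at an exon further upstream, chr9:20959733-20959888, and encodes 1501 residues; a shorter Dnmt1 protein from an upstream first exon is known from mouse oocytes. A retained intron, Dnmt1-204, held 13.8% and 13.7%. Dnmt1-202 differs from Dnmt1-201 not only in its first exon but also by the lack of 3 bases at chr9:20940552-20940554, shown here in capitals on the transcript strand between 15 bases on either side (GENCODE M21).
Dnmt1 long: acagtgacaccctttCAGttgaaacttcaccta
Dnmt1 short: acagtgacaccctttttgaaacttcaccta
The form with these 3 bases, CAG, made up 71.4% and 72.9% of complete coding TPM. Both complete coding transcripts without them, Dnmt1-202 and Dnmt1-203, also start elsewhere than Dnmt1-201, and no complete coding transcript in the annotation joins the Dnmt1-201 start to the shorter exon. Use of the upstream start and loss of the 3 bases therefore cannot be told apart in these quantifications. Of 5149 positions at which a 100-base read can lie on Dnmt1-202, 154 were unique to it, and the posterior SD of its 2988 and 2746 counts was 251 and 240.

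The stretches before these starts are shown because they differ in the letters that the members act on. The 250 bases before each RefSeq start (GRCm38.p6) held 7 CG dinucleotides at the start of Dnmt1-201, chr9:20952980-20953229, and 2 at the start of Dnmt1-202, chr9:20959889-20960138, both on the minus strand; CG is in capitals.
Dnmt1-201 start: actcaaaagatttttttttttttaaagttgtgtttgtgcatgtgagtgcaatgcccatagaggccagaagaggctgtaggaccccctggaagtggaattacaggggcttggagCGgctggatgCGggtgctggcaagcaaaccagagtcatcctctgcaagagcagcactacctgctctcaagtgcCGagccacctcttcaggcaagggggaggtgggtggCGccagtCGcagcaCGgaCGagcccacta
Dnmt1-202 start: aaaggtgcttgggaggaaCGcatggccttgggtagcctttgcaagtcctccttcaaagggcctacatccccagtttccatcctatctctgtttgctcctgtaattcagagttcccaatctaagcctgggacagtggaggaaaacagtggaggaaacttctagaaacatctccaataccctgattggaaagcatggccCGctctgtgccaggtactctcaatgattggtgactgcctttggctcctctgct
Another RefSeq start of Dnmt1, at chr9:20952623, was preceded by 26 CG and is that of Dnmt1-203, given 2.01% and 1.82% of the TPM. Its window, chr9:20952624-20952873, lies downstream of the Dnmt1-201 start. Only 18 of the 5771 read positions on Dnmt1-203 were unique to it. Dnmt1-207, which starts nearby at chr9:20952605 and has the 3 bases, had 0 unique positions and was given 0 counts. Use of these starts therefore cannot be fully told apart from that of the Dnmt1-201 start. Over all 32851 RefSeq windows of 250 bases the median was 6 CG. With a GC content of 50% or more and a CG count of at least 0.6 times that expected from the base composition as the limits, 9 of 17 windows of the members were CG-rich, against 31.02% of all windows. The 3 windows of Dnmt3l, the undetected member, held 3 to 5 CG.

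Uhrf1 was divided among 3 transcripts, Uhrf1-204 with 48.1% and 44.1%, Uhrf1-201 with 26.6% and 29.5%, and Uhrf1-203 with 19.6% and 19.7% of its TPM. Uhrf1-201 and Uhrf1-204 encode 782 residues and Uhrf1-203 774, the difference being 24 bases at chr17:56313041-56313064, in capitals here between 15 bases on either side (GENCODE M21).
Uhrf1 long: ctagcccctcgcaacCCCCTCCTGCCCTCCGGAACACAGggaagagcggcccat
Uhrf1 short: ctagcccctcgcaacggaagagcggcccat
The long form held 78.0% and 76.6% of complete coding TPM, 77.3 ± 1.02% (SD, n = 2). The downstream first exon, as in Uhrf1-204, accounted for 51.7% and 48.7%, and the upstream first exon had 2 annotated starts, with 27.8% and 30.7% at one and 20.4% and 20.6% at the other. As the reads were divided, the downstream start was ahead of each upstream start in both libraries, but of their sum in replicate 1 alone. The upstream starts are those of Uhrf1-201, which has the 24 bases, and Uhrf1-203, which lacks them. Among upstream transcripts, choice of start and presence of the 24 bases therefore cannot be told apart. Uhrf1-203 and Uhrf1-204 had 0 positions unique to them for a 100-base read. The posterior SD was 379 and 389 counts for Uhrf1-201, 312 and 305 for Uhrf1-203, and 326 and 296 for Uhrf1-204. The windows before the starts, chr17:56303087-56303320 and chr17:56304063-56304312 on the plus strand, are printed with CG in capitals and without bases inside an annotated exon.
Uhrf1 upstream start: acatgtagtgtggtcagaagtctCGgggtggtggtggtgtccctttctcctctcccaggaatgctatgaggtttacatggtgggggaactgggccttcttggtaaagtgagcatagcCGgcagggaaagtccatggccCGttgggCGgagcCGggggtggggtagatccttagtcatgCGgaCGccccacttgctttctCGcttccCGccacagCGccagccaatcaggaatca
Uhrf1 downstream start: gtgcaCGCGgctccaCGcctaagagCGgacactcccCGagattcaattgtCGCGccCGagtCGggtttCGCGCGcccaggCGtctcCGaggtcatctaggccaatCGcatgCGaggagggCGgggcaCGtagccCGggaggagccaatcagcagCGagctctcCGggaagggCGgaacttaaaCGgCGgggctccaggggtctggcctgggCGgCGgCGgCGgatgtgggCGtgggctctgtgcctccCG
Over the full 250 bases they held 10 CG upstream and 30 CG downstream. The downstream window also held TTTCGCGC, an E2F-like motif, and so did the window before the Dnmt1-203 start. In all, 4 such motifs were searched on both strands, TTTCCCGC, TTTCGCGC, TTTGCCGC and TTTGGCGC, and at least 1 was present in 2 of 17 member windows and in 1.86% of all windows; a match is a string of letters and not a measured site.

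Dnmt3a makes a long protein from an upstream start and a shorter one, known as Dnmt3a2 and described as the main form of embryonic stem and germ cells, from an internal start. Dnmt3a-205 (689 residues, internal start) held 52.4% and 49.99% of the TPM of the gene, and Dnmt3a-201 (908 residues, upstream start) 16.2% and 16.9%. Among complete coding transcripts, those from the internal start held 26.7 and 25.9 TPM, and Dnmt3a-201 held 7.85 and 8.28 TPM. In TPM the transcripts with the internal start thus made up 77.3% and 75.8%, but in expected counts 45.8% and 43.9%. Dnmt3a-201 is annotated with 9685 bases and Dnmt3a-205 with 2328, so the same number of reads weighs more in TPM on the shorter one. Dnmt3a-205 also ends nearer, at chr12:3907842, and Dnmt3a-201 at chr12:3914443. Dnmt3a-203, with the internal start and the further end, held 1.30 and 1.40 TPM. No complete coding transcript in the annotation joins the upstream start to the nearer end. Use of the internal start and of the nearer end therefore cannot be fully told apart in these shares. The windows before the 2 starts, chr12:3806730-3806979 and chr12:3891494-3891727 on the plus strand, are shown with CG in capitals (RefSeq, GRCm38.p6), the second up to its first exon.
Dnmt3a upstream start: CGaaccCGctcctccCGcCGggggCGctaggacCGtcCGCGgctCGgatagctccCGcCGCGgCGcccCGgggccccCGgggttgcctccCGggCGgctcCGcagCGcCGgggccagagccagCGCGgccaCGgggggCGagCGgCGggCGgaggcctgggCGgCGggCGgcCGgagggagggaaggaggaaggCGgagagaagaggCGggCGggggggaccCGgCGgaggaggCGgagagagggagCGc
Dnmt3a internal start: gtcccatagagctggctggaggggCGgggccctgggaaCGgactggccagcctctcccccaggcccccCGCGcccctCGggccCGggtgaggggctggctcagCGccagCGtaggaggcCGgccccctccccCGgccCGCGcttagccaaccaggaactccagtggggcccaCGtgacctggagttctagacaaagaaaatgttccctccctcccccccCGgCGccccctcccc
The full 250 bases held 38 CG upstream and 15 CG at the internal start, with observed over expected ratios of 0.94 and 0.46.

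Dnmt3b was dominated by Dnmt3b-206, with 48.9% and 65.1% of its TPM, from 883 and 1050 counts with a posterior SD of 113 and 68.8. It encodes 776 residues and lacks 3 exons found in Dnmt3b-207, which encodes 860 residues and held 17.3% and 16.9%. The coding sequences have 2328 and 2580 bases, a difference slightly larger than these 3 exons. The last 2 of these exons, chr2:153683608-153683677 and chr2:153684359-153684477, are skipped together; they add 189 bases, or 63 residues, to the catalytic end of the protein. Forms without them, known in the mouse as Dnmt3b3 and Dnmt3b6, are described as having no methyltransferase activity of their own. Both exons are in capitals here, between 15 bases on either side, above the junction that skips them (GENCODE M21, plus strand).
Dnmt3b with both exons: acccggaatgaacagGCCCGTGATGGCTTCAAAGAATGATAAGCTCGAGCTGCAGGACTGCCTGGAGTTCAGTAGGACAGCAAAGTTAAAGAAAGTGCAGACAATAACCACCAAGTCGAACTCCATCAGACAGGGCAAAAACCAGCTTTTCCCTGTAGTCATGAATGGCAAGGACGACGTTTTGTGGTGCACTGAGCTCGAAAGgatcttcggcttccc
Dnmt3b without them: acccggaatgaacaggatcttcggcttccc
Transcripts without the exon pair held 8.29 and 9.56 TPM, and those with it 5.21 and 3.37 TPM. The forms without the pair thus made up 61.4% of complete coding TPM in replicate 1 and 73.9% in replicate 2. In expected counts the pair was carried by 38.4% and 25.5%, close to its 38.6% and 26.1% of TPM. Most of the gap between the libraries lies in Dnmt3b-209, an 839-residue form that was given 202 counts in replicate 1, with a posterior SD of 83.8, and none in replicate 2, with a posterior SD of 30.2.

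The remaining exon, chr2:153670849-153670908, adds 60 bases in the part before the catalytic domain and is shown in capitals between its neighbours.
Dnmt3b upstream exon: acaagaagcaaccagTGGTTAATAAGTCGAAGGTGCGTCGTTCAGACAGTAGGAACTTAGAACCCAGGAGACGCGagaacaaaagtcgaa
It was present in 27.3% and 26.1% of complete coding TPM, a smaller spread between libraries than for the exon pair. In replicate 2 the transcripts given counts carried either all 3 exons or none. The 2 annotated transcripts that keep the upstream exon and skip the pair had 0 expected counts in both libraries, but posterior mean shares of 0.84% and 1.46% (Dnmt3b-204) and 1.33% and 2.33% (Dnmt3b-208). Mixed forms are therefore not shown to be absent, and none of the 10 complete coding transcripts had a position unique to it for a 100-base read.

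**Figure D3:**
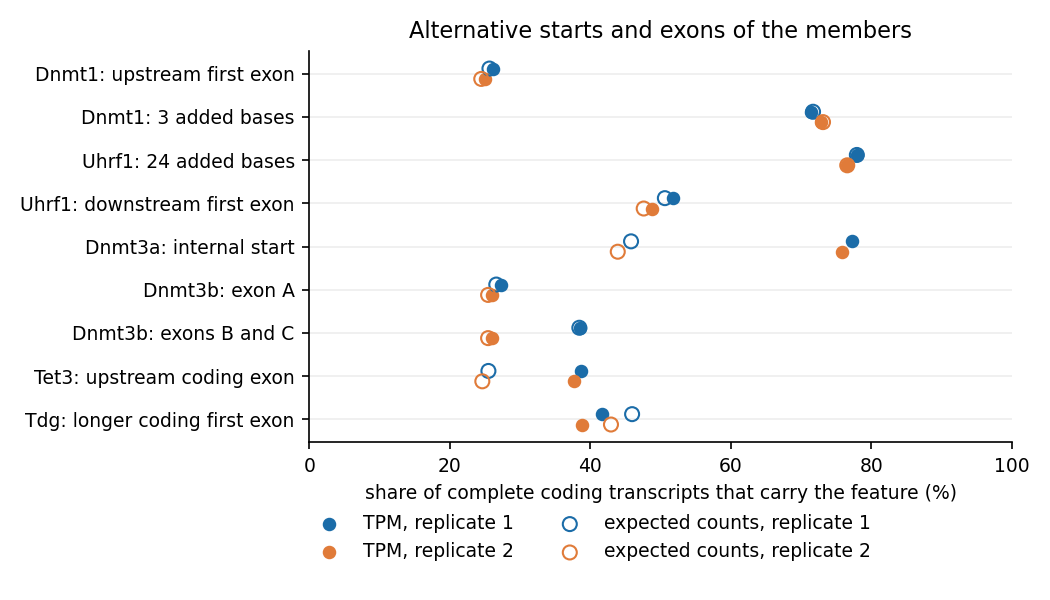
The horizontal axis gives, in percent, the share of complete coding transcripts of a gene that carry each start or exon, in TPM (filled) and in expected counts (open), with blue for replicate 1 and orange for replicate 2. Both scales lie together for Dnmt1, Uhrf1 and Dnmt3b, and apart for the internal start of Dnmt3a (77.3% and 75.8% of TPM, 45.8% and 43.9% of counts) and the upstream coding exon of Tet3.

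Tet3 makes forms with and without an amino-terminal CXXC domain, which binds CG-rich DNA. Tet3-203, whose upstream coding exon at chr6:83454750-83455480 is absent from Tet3-202, encodes 1803 residues and held 2.56 and 2.63 TPM. Tet3-202, with 1668 residues, held 4.05 and 4.35 TPM. Tet3-201, annotated without a coding sequence, held 2.44 and 1.59 TPM. The form with the upstream exon made up 38.7% and 37.7% of complete coding TPM, and 25.5% and 24.6% of the counts. Of the Tet2 transcripts, Tet2-201, the only complete coding form given reads, encodes 1912 residues and held 1.30 and 1.43 TPM. The retained intron Tet2-210 held 1.42 and 1.23 TPM, above the coding form in replicate 1 and below it in replicate 2, and the 423-base coding fragment Tet2-205 held 0.58 and 0.96 TPM. Complete coding transcripts of Tet1 held 0.61 and 0.76 TPM in all, 20.3% and 19.8% of its TPM but 83.5% and 82.6% of its counts. Tet1-206 was given 282 counts in replicate 1 and 124 in replicate 2, and Tet1-201, which starts elsewhere, 0 and 195 counts, so the division between the long forms was not the same in the libraries. The 414-base fragment Tet1-207 held 41.5% and 47.0% of the TPM of the gene from 12.8 and 17.1 counts, and Tet1-202, annotated without a coding sequence, 23.9% and 23.0% from 33.2 and 37.5 counts.

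The 2 glycosylases each had 2 complete coding forms. Tdg-201, of 397 residues, held 30.4 and 33.5 TPM, and Tdg-208, of 421 residues, 21.7 and 21.2 TPM. Mbd4-202, of 386 residues, held 5.75 and 5.21 TPM, and Mbd4-201, of 554 residues, 4.87 and 4.31 TPM. Mbd4-202 has 3 exons and ends at chr6:115847692, so it does not reach the later exons of Mbd4-201, which has 8 and ends at chr6:115840697. Each pair kept its order in both libraries in TPM; in counts Mbd4-201 came before Mbd4-202, with 559 and 458 against 435 and 365. Coding fragments made up another 13.1% and 14.02% of Tdg (Tdg-210) and 10.2% and 13.7% of Mbd4 (Mbd4-205).

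Under the older GENCODE M4 annotation the same libraries gave other levels for the lower TET genes. Tet2 held 4.25 and 4.27 TPM under M21 and 1.56 and 1.66 TPM under M4, a ratio of 2.72 and 2.57. On the log2(TPM + 1) scale its difference was 1.04 and 0.99, and on that scale it was the only member past 1.5-fold in both libraries, a rule met by 5.51% of the 13235 genes compared in either direction and by 4% with M21 higher. Its counts differed less, 557 and 532 under M21 and 447 and 440 under M4, while its effective length was 4012 and 4119 bases under M21 and 9080 bases under M4. M21 lists 10 transcripts of Tet2 and M4 1. Tet1 held 3.01 and 3.82 TPM under M21 and 1.75 and 2.06 TPM under M4, a plain ratio of 1.72 and 1.85 that passes 1.5-fold, but a difference of 0.54 and 0.66 on the log2(TPM + 1) scale of the rule, which does not in replicate 1. Dnmt1 held 81.6 and 84.6 TPM under M21 and 73.1 and 75.9 TPM under M4, and the other members differed by less than 0.1 on the log2 scale.

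**Figure D4:**
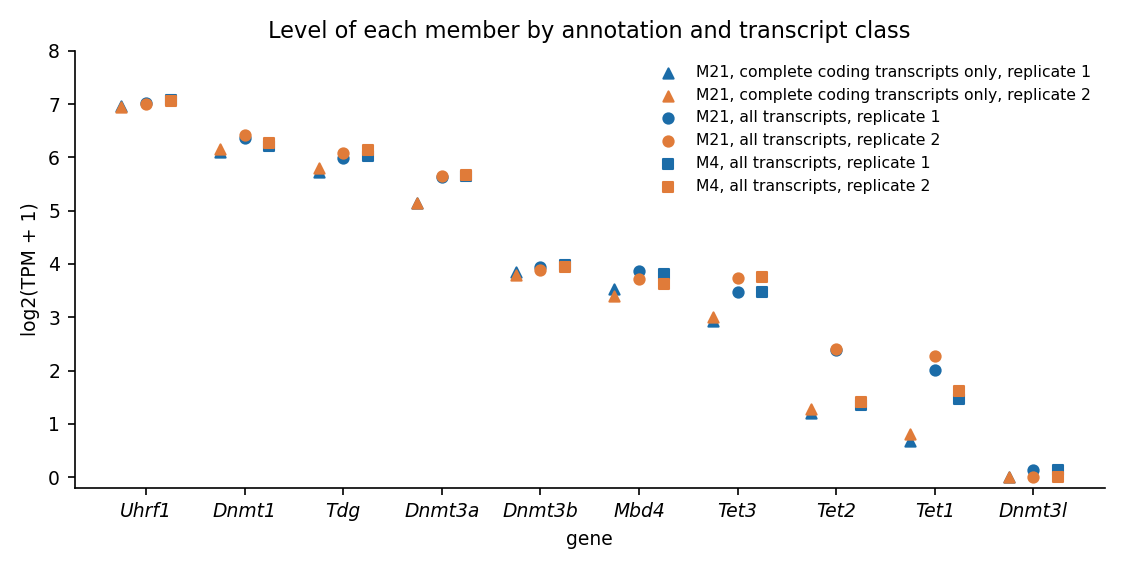
The vertical axis gives log2(TPM + 1) per library for each member in 3 ways, from left to right the complete coding transcripts of M21, all transcripts of M21 and all transcripts of M4. The 3 values lie close for Uhrf1 and Dnmt3b and spread widest for Tet1 and Tet2, where all M21 transcripts gave 3.01 to 4.27 TPM and complete coding transcripts 0.61 to 1.43 TPM.

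When only complete coding transcripts were summed, Uhrf1 had 124 and 123 TPM, Dnmt1 68.0 and 70.7 TPM, Tdg 52.1 and 54.8 TPM and Dnmt3a 34.6 and 34.2 TPM. Dnmt3b had 13.5 and 12.9 TPM, Mbd4 10.6 and 9.52 TPM and Tet3 6.61 and 6.98 TPM on the same count. The order of the members by mean level was the same as over all transcripts, and Mbd4 and Tet3 no longer overlapped.

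Genes that overlap a member on either strand were near 0, and so were the processed pseudogenes named after Tdg, Dnmt3a and Dnmt3l. The highest were Glt8d2, opposite Tdg, with 0.37 and 0.62 TPM, and 5430434F05Rik, within Tet3 on its strand, with 0.39 and 0.26 TPM. The processed pseudogene Tdg-ps held 0.08 and 0.17 TPM. Other copies of the members were not searched for. The use of strand in counting is not given in the sources used here. Reads of antisense partners therefore cannot be told apart from those of the members. No partner listed reached 1 TPM, but those levels rest on the same division of reads and do not settle this.

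The genes that work with the members were then placed beside them, by list. All 12 partners of maintenance methylation were at 10 TPM or more, with a median of 60.1 TPM. Pcna, the sliding clamp of replication that recruits Dnmt1, held 296 and 301 TPM, Hdac1, a deacetylase that binds Dnmt1, 122 and 117 TPM, and the ligase Lig1 106.0 and 109.8 TPM. Pclaf, a clamp-bound protein that helps to load Dnmt1, held 105 TPM in both libraries. Of 10 genes from families that include readers of methylated DNA, 9 were at 1 TPM and 4 at 10 TPM, with a median of 8.21 TPM. Membership of this list does not mean that each protein binds methylated DNA. Mbd3, a subunit of the NuRD complex, stood highest with 117 and 112 TPM, and Uhrf2, the relative of Uhrf1, held 44.5 and 41.0 TPM. Mbd1 held 25.7 and 24.9 TPM, Mbd2 10.4 and 11.7 TPM, and Zbtb4 0.59 and 0.36 TPM.

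In the list of base excision repair, which includes other glycosylases beside later steps, 18 of 19 genes were at 1 TPM and 12 at 10 TPM. Their median was 22.1 TPM. The flap nuclease Fen1 held 168 and 165 TPM, the abasic site nuclease Apex1 124 and 121 TPM, and Parp1, which binds strand breaks, 96.4 and 93.2 TPM. Gadd45a, a stress protein linked to demethylation, held 74.1 and 81.1 TPM, and the glycosylase Neil2 0.27 and 0.31 TPM. Of 12 genes that make or use the cofactors of the TET enzymes or bind them, 11 were at 1 TPM, with a median of 34.1 TPM. Sdha, which oxidises the TET product succinate, held 163 and 161 TPM, and Idh2, which makes 2-oxoglutarate in mitochondria, 133 and 134 TPM. Fh1 held 73.6 and 67.1 TPM and the cytosolic Idh1 64.8 and 64.4 TPM. Cxxc4, which carries a CXXC domain and binds Tet2, held 0.61 and 0.60 TPM. Among the cytosine deaminases, Apobec3 held 45.9 and 48.0 TPM and Apobec1, which edits apolipoprotein B RNA, 3.14 and 3.46 TPM. Apobec2 held 0.70 and 0.98 TPM.

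The methyl group comes from S-adenosylmethionine, and 15 of 17 genes of its cycle were at 1 TPM, with a median of 12.9 TPM. Mat2a, the synthetase of most tissues, held 267 and 268 TPM, with 54.4 and 55.0 TPM for its partner Mat2b. Mat1a, the synthetase of adult liver, held 0.45 and 0.46 TPM. Mthfd1, of the folate cycle, held 119 and 113 TPM and Ahcy, which clears the product of methylation, 56.3 and 54.7 TPM. Nnmt, a methyltransferase of nicotinamide, was low at 0.36 and 0.49 TPM. Of 9 recruiters and germ line partners, 7 were at 1 TPM, with a median of 9.60 TPM. Trim28, the corepressor that holds methylation at imprinted sites, held 171 and 168 TPM. The histone methyltransferases Nsd2, Nsd1 and Setd2, whose marks Dnmt3a and Dnmt3b bind, averaged 32.7 ± 1.19, 22.9 ± 0.240 and 16.3 ± 1.11 TPM (SD, n = 2). The rodent germ line enzyme Dnmt3c held 0.49 and 0.35 TPM and Dppa3, which keeps Uhrf1 off chromatin in oocytes, 0 and 0.11 TPM.

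None of 13 germ line genes that are known to be methylated in somatic cells reached 1 TPM, and their median was 0.075 TPM. The highest was Ddx4, an RNA helicase of germ cells, with 0.29 and 0.41 TPM from 26 and 35 counts. Brdt held 0.17 and 0.20 TPM, Dazl 0.25 and 0.06 TPM and Slc25a31 0.11 and 0.07 TPM. No gene of these 8 lists that could be tested passed the rule for a difference between the libraries, a rule met by 2.35% of all genes tested.

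**Figure D5:**
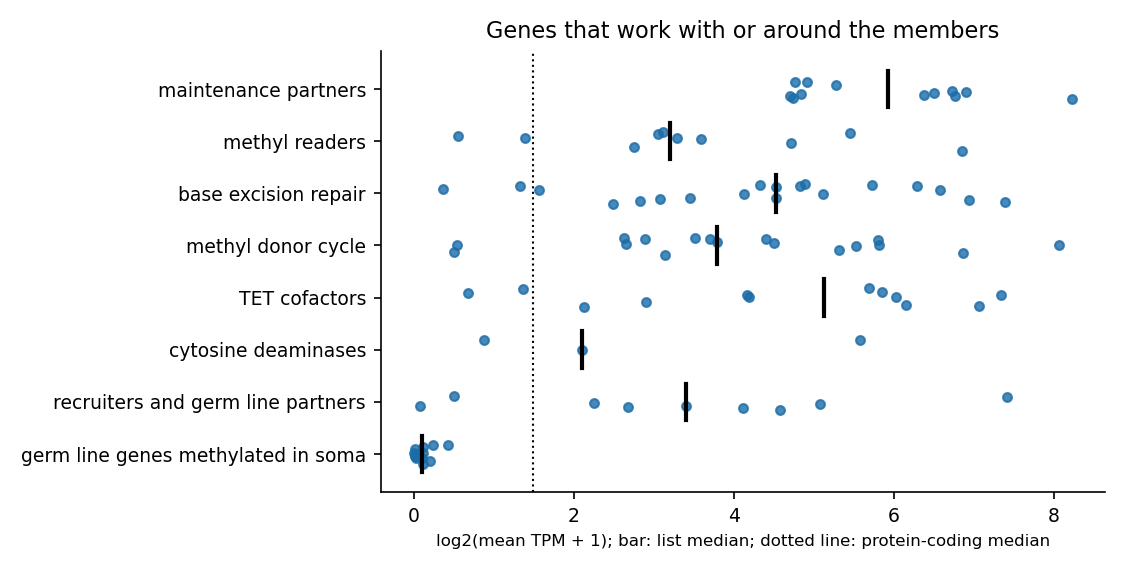
The horizontal axis gives log2(mean TPM + 1) of each gene over the 2 libraries and the vertical axis the 8 lists, with a bar at the median of each list and a dotted line at the protein-coding median of 1.82 TPM. All maintenance partners lie right of the line and all germ line genes left of it, while the other lists spread across it.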

How the data were processed

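Polyadenylated RNA was sequenced from 2 pools of embryonic liver. Per the labels, mirVana extraction gave the RNA, of which 10 ng with added ERCC spike-ins went into each library, made with a SMARTer kit and Nextera tagmentation; the assembly was mm10. The expected counts, deposited per gene and per transcript under GENCODE M21 and M4, are reads that the authors divided among transcripts; the TPM values were deposited with them. Posterior mean TPM was deposited too, and the posterior SD of each count and the effective length, 2 columns of plain signal values, stand as the authors deposited them. For the aligner, the quantifier and the use of strand, the entry is: not given in the sources used here. In every transcript of a member over 200 bases, length exceeded effective length by 99 bases, as for reads of 100 bases.

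Members and lists were chosen with earlier results of these data known. Named were all members, their transcripts at 10% of TPM in both libraries, the 4 highest genes of each list and up to 2 of each list under 1 TPM; starts, exons and other transcripts were chosen after their values were seen. A gene that the rule would name is not reported here. TPM was averaged over the libraries. Libraries were compared with edgeR 4.0.16 TMM scaling, genes with a mean of 10 counts or more, a prior count of 0.5 and the exact 95% binomial interval of the rounded counts; a rule tested on simulated data. Annotations were compared as log2 of TPM with a pseudocount of 1, for genes at 1 TPM under either. Intervals and floors cover counting error only. Complete coding transcripts are those annotated as protein-coding with both ends of the coding sequence. Spike-ins held 4.99% and 5.40% of TPM. A further 26248 entries with bare numbers held under 0.001% of counts and were left out of the gene analyses. Other scalings tried were total counts, spike-ins and the size factors of DESeq2 1.42.0; further alternatives were other filters and pseudocounts, posterior mean TPM, rescaled TPM, M4, protein-coding or complete coding transcripts only, and each library alone. Sequences are from GENCODE M21 and RefSeq (GRCm38.p6). Windows were printed for Dnmt1, Dnmt3a and Uhrf1, genes picked after their values were seen, at the first RefSeq start within 50 bases of a start with 20% or more of complete coding TPM in both libraries.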

Additional observations from a re-analysis of the deposited data

How the results depend on the processing

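No paired analysis was possible because the 2 libraries form 1 group. Of 138 values recomputed under other settings, 83 stayed within the spread of the libraries, 53 moved and 2 reversed. Both reversals were Tet2 over Tet1, at log2 -0.24 under M4 and -0.19 over protein-coding transcripts, against 1.00 over complete coding ones, a sum added after seeing the data. With posterior mean TPM, maintenance over de novo was log2 1.70, and Tet1 and Tet3 made up 20.2% and 56.6% of TET TPM. Under M4, maintenance over de novo was 1.69, Dnmt1 over Uhrf1 -0.84, and Tet1, Tet2 and Tet3 made up 12.9%, 10.9% and 76.2%. Over protein-coding transcripts the same 2 ratios were 1.81 and -0.83, Dnmt3b over Dnmt3a -1.66, and Tet2 and Tet3 15.8% and 66.2%. Over complete coding transcripts they were 2.02, -0.83 and -1.38, writers over erasers 1.73, and the TET shares 7.72%, 15.4% and 76.9%. The cause was not tested. A pseudocount of 0.1 TPM or posterior mean TPM put 2 members, Tet1 and Tet2, past the annotation rule. Between libraries the genes called numbered 753 of 55536 (1.36%) with no filter and 47 of 13393 (0.351%) at a mean of 50 counts. At 1.5-fold they numbered 759 of 17343 (4.38%). Each setting called 0 members, which at shares this low says little about the members. Spike-in scaling shifted the median gene by log2 -0.12. All 84 values with a library left out stayed within 1 SD, or within 1.5 times for a count; for a mean of 2 values this holds by construction. At this depth Dnmt3l had 1 count and none, and the posterior SD of Tet1-201 in replicate 2 was 60.3 on 195 counts.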
